A study of Mus musculus with 6 samples.

Results

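The annexins and the S100 proteins that bind them were described in the livers of 3 transgenic and 3 wild-type mice, all at postnatal day 9 (P9), with 1 array per animal. Members were the probe sets annotated to exactly 1 gene among Anxa1, Anxa2, Anxa3, Anxa4, Anxa5, Anxa6, Anxa7, Anxa11, S100a10 and S100a11. This gave 16 of the 22626 probe sets that are not array controls, for 8 of the 10 genes. The single probe set that names Anxa11 and the single one that names S100a11 also name other loci, so neither gene was given a value. The transgenic mice carried a conditional allele that overexpresses Tcfeb (the former symbol of Tfeb, a transcription factor of lysosomal and autophagy genes) and were crossed with an Alb-Cre line. The albumin promoter that drives this Cre is active in hepatocytes and in the embryonic cells that form hepatocytes and bile ducts. The labels call the controls wild type, name no other allele in either group, describe no construct and call the arrays biological replicates. The comparison asks how TFEB overexpression in liver changed gene expression. Tfeb read 6.52, 6.61 and 6.36 in transgenic liver, against 6.91, 6.63 and 6.58 in wild-type liver on its only probe set, so the array did not show the overexpression that the labels state. The labels do not say which part of the gene the transgene holds, and a transcript that lacks the probed part would not be read. Transgenic replicate 1 had a male pattern of sex-linked transcripts and the other arrays a female one (Xist 1436936_s_at 5.58 on it against 13.03 to 13.19 elsewhere). The members were chosen by gene family with the transgenic and wild-type values of these same arrays in view, so their differences are given as a description, and which of them passed the threshold supports nothing further.

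Annexins are cytosolic proteins that bind acidic phospholipids when calcium rises, through a conserved core of annexin repeats, and they act in membrane repair, endocytosis, secretion and the organisation of membrane domains. S100 proteins are small calcium-binding proteins that form dimers. An S100A10 dimer bound to annexin A2 forms a complex at the plasma membrane that binds the plasminogen activator tPA and plasminogen, and S100A11 binds annexin A1. Annexins are abundant in epithelial, endothelial and myeloid cells as well as in liver parenchyma, so whole-liver RNA reads them from many cell types at once.

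Of the 16 member probe sets, 13 were higher in transgenic liver and 0 were lower by limma with Benjamini-Hochberg adjustment over all 22626 probe sets (adjusted p under 0.05), which called 18.1% of all probe sets higher and 17.3% lower. Counted by the highest-mean probe set of each gene, 6 of 8 members were higher and 0 lower, against 19.1% and 19.5% of all genes. No further member probe set passed at an unadjusted p under 0.05, in either direction. Anxa5, the phosphatidylserine-binding annexin used to detect dying cells, and S100a10 differed the most, at 2.49-fold and 2.30-fold. Anxa4, Anxa6 and Anxa7 were higher on every one of their probe sets, by 1.38-fold to 1.89-fold. Anxa2 was higher by a smaller margin on 2 of 3 probe sets, Anxa3 did not pass, and Anxa1 was the only member with a negative difference, which did not pass either. At 3 member probe sets the call was for a reading at least 2-fold higher, as at 2.18% of all probe sets. Every transgenic array read above every wild-type array at 13 of the 16 member probe sets, those called higher, and at 24.6% of all probe sets. Without transgenic replicate 1, the array with the male pattern, 11 member probe sets were higher and 0 lower, the 2 lost calls being those of Anxa2. The median difference of the 16 was 0.58 on the log2 scale, against -0.04 over all probe sets. Values below are log2 expression on the deposited scale, each difference is the transgenic mean less the wild-type mean, with its standard error (SE) from limma, and means carry the SD over n = 3 arrays per group.

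**Figure D1:**
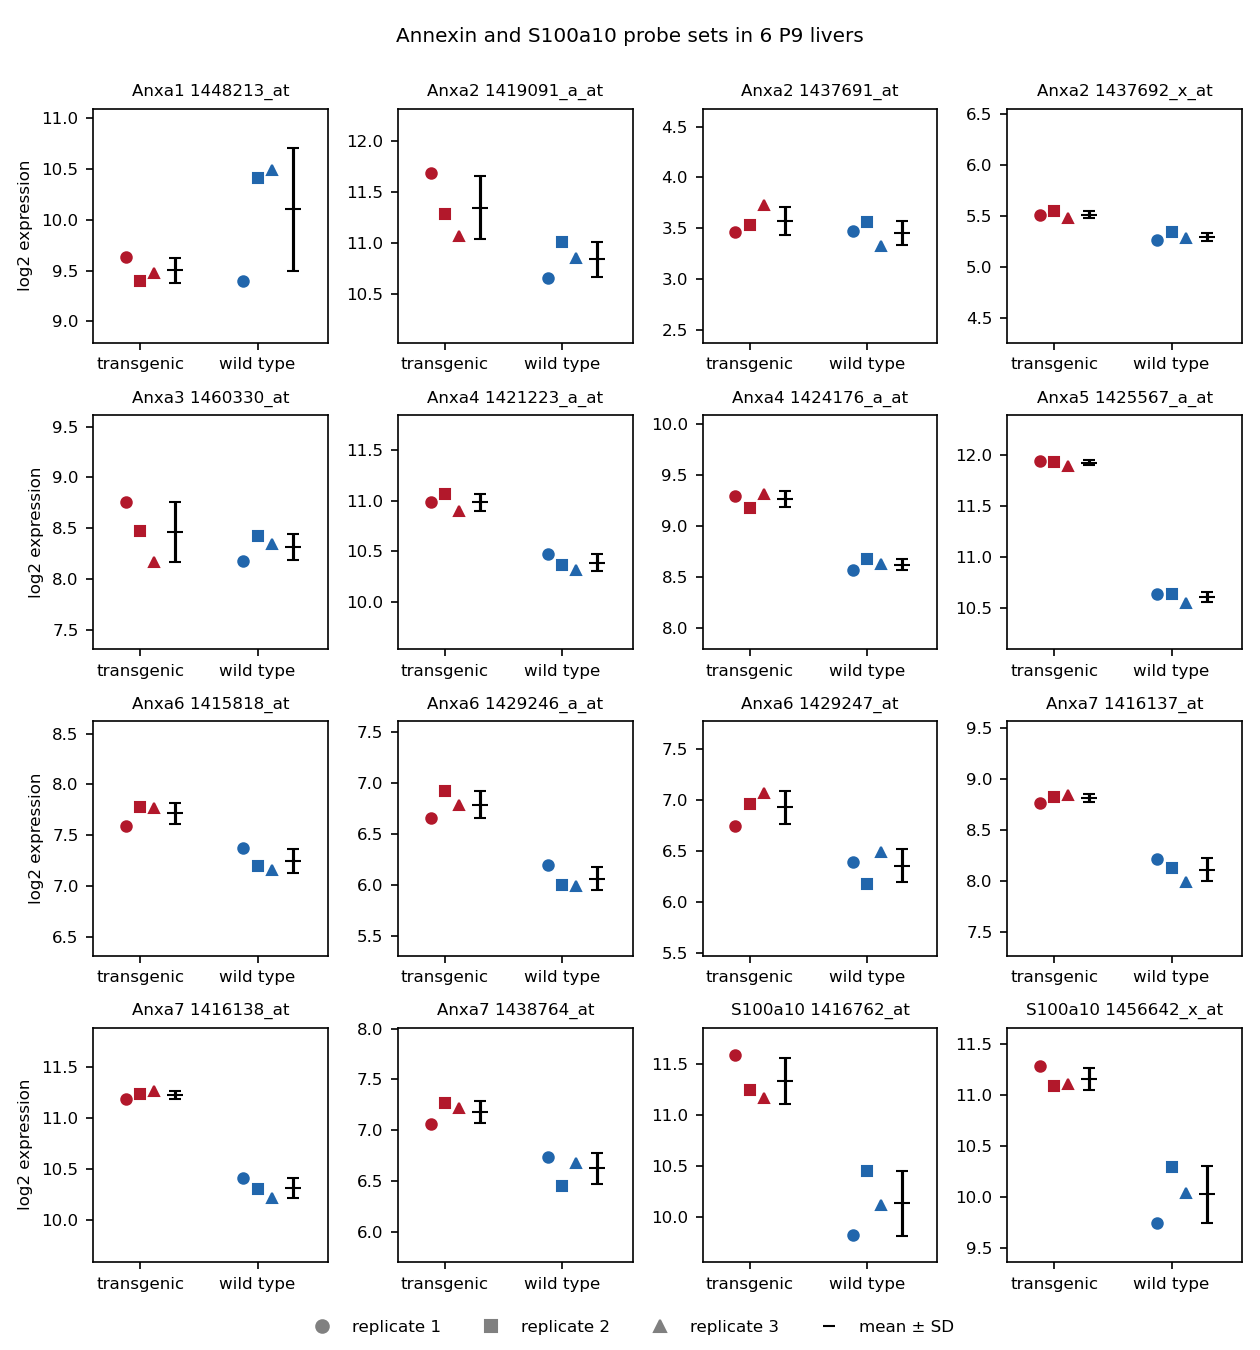
Log2 expression of the 16 member probe sets (vertical axes, each spanning the same range of log2 units) on the 3 transgenic arrays (red) and the 3 wild-type arrays (blue), with a marker shape for each replicate number and the mean ± SD in black beside each group. In 13 panels every transgenic array lies above every wild-type array; Anxa1, Anxa3 and Anxa2 1437691_at are the panels with overlap.

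Promoter sequences are shown for 4 members, because TFEB binds E-box elements and because these genes span the measured range: Anxa5 with the largest difference, Anxa7 with 3 concordant probe sets, Anxa2 as the partner of S100a10, and Anxa1 with the opposite sign. The windows run from 250 bases before to 50 bases after an annotated start in the RefSeq annotation of GRCm38.p6, 5′ to 3′ on the gene's strand, and lie at chr3:36475838-36476137 (minus strand, Anxa5), chr14:20479892-20480191 (minus strand, Anxa7), chr9:69453433-69453732 (plus strand, Anxa2) and chr19:20390622-20390921 (minus strand, Anxa1). Capitals mark the E-box core CACGTG and the AP-1 motif TGANTCA, both searched on both strands, as was the GC box GGGCGG, which is not marked. Of the Anxa7 starts, the printed one was picked because its window holds CACGTG.
Anxa5: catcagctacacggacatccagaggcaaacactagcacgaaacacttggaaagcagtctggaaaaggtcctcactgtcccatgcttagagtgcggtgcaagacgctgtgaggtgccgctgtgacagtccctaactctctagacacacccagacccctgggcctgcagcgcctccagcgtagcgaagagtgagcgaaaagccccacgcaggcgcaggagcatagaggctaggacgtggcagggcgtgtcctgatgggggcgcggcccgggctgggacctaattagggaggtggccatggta
Anxa7: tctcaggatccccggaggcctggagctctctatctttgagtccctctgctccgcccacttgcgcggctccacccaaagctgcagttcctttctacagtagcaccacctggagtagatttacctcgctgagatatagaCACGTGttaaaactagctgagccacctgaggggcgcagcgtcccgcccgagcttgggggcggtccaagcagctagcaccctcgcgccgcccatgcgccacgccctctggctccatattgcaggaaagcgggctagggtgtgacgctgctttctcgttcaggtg
Anxa2: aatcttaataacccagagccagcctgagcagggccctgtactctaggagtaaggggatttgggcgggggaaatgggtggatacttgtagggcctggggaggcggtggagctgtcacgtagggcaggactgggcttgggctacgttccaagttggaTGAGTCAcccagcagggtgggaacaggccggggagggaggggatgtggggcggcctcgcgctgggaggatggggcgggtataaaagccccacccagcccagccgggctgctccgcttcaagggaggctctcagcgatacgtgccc
Anxa1: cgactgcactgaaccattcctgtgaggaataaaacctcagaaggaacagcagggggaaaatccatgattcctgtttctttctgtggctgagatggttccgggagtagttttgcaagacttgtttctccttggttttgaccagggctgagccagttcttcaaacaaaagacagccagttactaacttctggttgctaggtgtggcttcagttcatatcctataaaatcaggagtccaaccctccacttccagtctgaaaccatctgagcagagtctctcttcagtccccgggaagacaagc
The Anxa7 window held 1 CACGTG, starting at base 138 counted from the 5′ end of the window, and the Anxa2 window held 1 TGANTCA at base 156. Neither motif was in the Anxa5 or the Anxa1 window. RefSeq windows matched 7 of the 10 members by symbol, with 9 windows in all, since Anxa4 and Anxa7 have a second start. Among the windows not printed, that of S100a11 held 1 CACGTG at base 28 and TGANTCA at bases 115 and 213, whereas those of Anxa4, the second Anxa7 start and Anxa11 held neither. CACGTG was present in 7.15% and TGANTCA in 7.81% of all 32851 windows of this length, and no match of one overlapped a match of the other in the members. GGGCGG was present in 35.7% of all windows and in those of Anxa2, Anxa7, Anxa11 and S100a11 and at 1 of 2 Anxa4 starts.

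Anxa5 had a single probe set. This probe set, 1425567_a_at, read 11.94, 11.93 and 11.89 on the transgenic arrays, against 10.64, 10.63 and 10.55 on the wild-type arrays. The groups lay far apart relative to their own spread, with 1.26 between the lowest transgenic and the highest wild-type array. The means were 11.92 ± 0.02 in transgenic and 10.60 ± 0.05 in wild-type liver, a difference of 1.32 (SE 0.07).

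Anxa7, also called synexin, promotes the aggregation and fusion of secretory granule membranes. Its brightest probe set 1416138_at read 11.19, 11.24 and 11.26 in transgenic liver, against 10.42, 10.31 and 10.22 in wild-type liver, a difference of 0.91 (SE 0.08). Probe set 1416137_at read 8.77, 8.82 and 8.85 in transgenic liver, against 8.22, 8.13 and 7.99 in wild-type liver, a difference of 0.70 (SE 0.08). Probe set 1438764_at read 7.06, 7.26 and 7.22 in transgenic liver, against 6.74, 6.45 and 6.68 in wild-type liver, a difference of 0.55 (SE 0.10). All 3 probe sets of Anxa7 thus separated the groups without overlap, with folds of 1.89, 1.62 and 1.47.

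Anxa4 associates with the apical membranes of secretory and absorptive epithelia. Probe set 1421223_a_at read 10.99, 11.06 and 10.90 in transgenic liver, against 10.48, 10.37 and 10.32 in wild-type liver, a difference of 0.59 (SE 0.08). Probe set 1424176_a_at read 9.30, 9.17 and 9.32 in transgenic liver, against 8.57, 8.67 and 8.62 in wild-type liver, a difference of 0.64 (SE 0.07). Both probe sets separated the groups, by 0.42 and 0.50 between the nearest arrays, and gave folds of 1.51 and 1.56.

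Anxa6, a larger annexin that carries a duplicated core and acts in endocytosis and the handling of membrane cholesterol, was higher on all 3 of its probe sets. Probe set 1415818_at averaged 7.72 ± 0.10 in transgenic and 7.25 ± 0.12 in wild-type liver, a difference of 0.47 (SE 0.09). Probe set 1429246_a_at averaged 6.79 ± 0.13 in transgenic and 6.06 ± 0.11 in wild-type liver, a difference of 0.72 (SE 0.09). Probe set 1429247_at averaged 6.92 ± 0.17 in transgenic and 6.35 ± 0.16 in wild-type liver, a difference of 0.57 (SE 0.11). Transgenic replicate 1 was the lowest transgenic array on each of the 3 probe sets and still lay above every wild-type array.

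For the annexin A2 and S100A10 complex, the S100 subunit separated the groups clearly and the annexin subunit only narrowly. S100a10 probe set 1416762_at read 11.59, 11.24 and 11.16 in transgenic liver, against 9.82, 10.45 and 10.11 in wild-type liver. All transgenic arrays lay at least 0.71 above the highest wild-type array, wild-type replicate 2. The means were 11.33 ± 0.23 in transgenic and 10.13 ± 0.32 in wild-type liver, a difference of 1.20 (SE 0.17). The second S100a10 probe set, 1456642_x_at, read 11.28, 11.09 and 11.11 in transgenic liver, against 9.74, 10.29 and 10.04 in wild-type liver, a difference of 1.14 (SE 0.14), and again wild-type replicate 1 was the lowest array.

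Anxa2 probe set 1419091_a_at, the brightest of its 3, read 11.68, 11.28 and 11.07 in transgenic liver, against 10.66, 11.01 and 10.85 in wild-type liver. The lowest transgenic and the highest wild-type array were only 0.07 apart, and transgenic replicate 1 stood above all others. The difference was 0.51 (SE 0.16), a 1.42-fold higher reading. Without transgenic replicate 1 it was 0.34 and no longer passed the threshold. The call was also lost without transgenic replicate 2 (0.54), wild-type replicate 1 (0.42) or wild-type replicate 3 (0.51), and with quantile normalization again (0.49), median centring (0.47), cyclic loess (0.42) or a replicate block (0.51). The other Anxa2 probe sets were dim, with unknown signal over background. Probe set 1437692_x_at read 5.51, 5.55 and 5.48 in transgenic liver, against 5.26, 5.34 and 5.28 in wild-type liver, a difference of 0.22 (SE 0.07) that no longer passed the threshold when any 1 of the 6 arrays was left out, when it ran from 0.20 to 0.24, or with median centring, trend and robust variance or a replicate block. Probe set 1437691_at read 3.46, 3.53 and 3.73 in transgenic liver, against 3.48, 3.56 and 3.33 in wild-type liver, with overlap between the groups.

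Across the 6 livers, Anxa2 1419091_a_at and S100a10 1416762_at ranked the arrays in the same order. Transgenic replicate 1 was highest for both and wild-type replicate 1 lowest for both, with transgenic replicates 2 and 3 and wild-type replicates 2 and 3 between them in that order. This is a description of 6 arrays in 2 groups that differ for both genes.

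**Figure D2:**
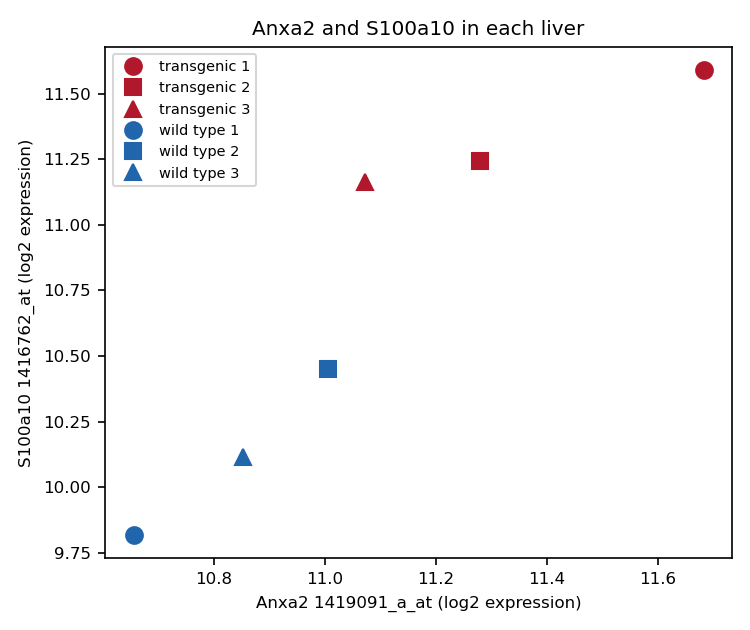
Log2 expression of Anxa2 1419091_a_at (horizontal axis) and S100a10 1416762_at (vertical axis), with 1 point per liver, transgenic in red and wild type in blue. Both genes place the 6 livers in the same order, from 10.66 and 9.82 in wild-type replicate 1 to 11.68 and 11.59 in transgenic replicate 1, while the gap between the groups is 0.07 for Anxa2 and 0.71 for S100a10.

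The 5 other genes whose highest-mean probe set followed Anxa2 1419091_a_at most closely over the 6 arrays were Lamtor5, Eif3h, Chchd1, Pafah1b3 and Psmc1. Their Pearson correlations with it were 0.994, 0.991, 0.986, 0.984 and 0.981, as a description of 6 arrays in 2 groups that differ for Anxa2. As for Anxa2, transgenic replicate 1, the array with the male pattern, was highest and wild-type replicate 1 lowest for all 5 genes. Lamtor5 encodes a subunit of the lysosomal Ragulator complex, Eif3h a translation initiation factor subunit, Chchd1 a mitochondrial ribosomal protein, Pafah1b3 a subunit of a platelet-activating factor acetylhydrolase and Psmc1 an ATPase subunit of the proteasome. Pafah1b3 read 8.77, 8.46 and 8.26 in transgenic liver, against 7.73, 8.04 and 7.86 in wild-type liver, whereas the differences of the other genes were 0.14 to 0.16 (SE 0.07 to 0.08).

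Anxa1 and Anxa3, which are abundant in granulocytes, did not pass the threshold. Anxa1, a mediator of the resolution of inflammation, read 9.63, 9.39 and 9.48 in transgenic liver, against 9.40, 10.41 and 10.49 in wild-type liver. Wild-type replicates 2 and 3 lay above all transgenic arrays, but wild-type replicate 1 lay among them. The means were 9.50 ± 0.12 in transgenic and 10.10 ± 0.61 in wild-type liver, a difference of -0.60 (SE 0.26). Without wild-type replicate 1 the difference was -0.95 (SE 0.09) and passed the threshold, as it did with array weights at -0.77. Anxa3 read 8.76, 8.47 and 8.17 in transgenic liver, against 8.18, 8.42 and 8.35 in wild-type liver, so that the groups overlapped (difference 0.15, SE 0.15).

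Most granulocyte markers moved in the same direction as Anxa1. Of 8 measured, 6 were lower and 0 higher in transgenic liver (19.5% of all genes were lower and 19.1% higher by their highest-mean probe set), and 0 were higher at an unadjusted p under 0.05. Their mean level ranged from 6.96 to 7.64 on the transgenic arrays and from 8.22 to 9.37 on the wild-type arrays. Wild-type replicate 1, the array with the low Anxa1 reading, had the lowest of those wild-type means. This was not particular to granulocyte markers. Macrophage genes had wild-type means of 10.56, 10.78 and 10.86 and lymphoid genes of 6.12, 6.59 and 6.75, again lowest on replicate 1. Ngp, a neutrophil granule protein gene, read 9.16, 8.08 and 8.81 in transgenic liver, against 10.58, 11.59 and 11.89 in wild-type liver. Elane, with a difference of -0.28, and Lcn2, with one of 0.25 in the opposite direction, did not pass. No reading on this scale is a true 0 and no detection calls were used here. The part of granulocyte content in the Anxa1 difference was not tested, and fewer cells of a type and less RNA per cell cannot be told apart in whole-liver RNA.

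**Figure D3:**
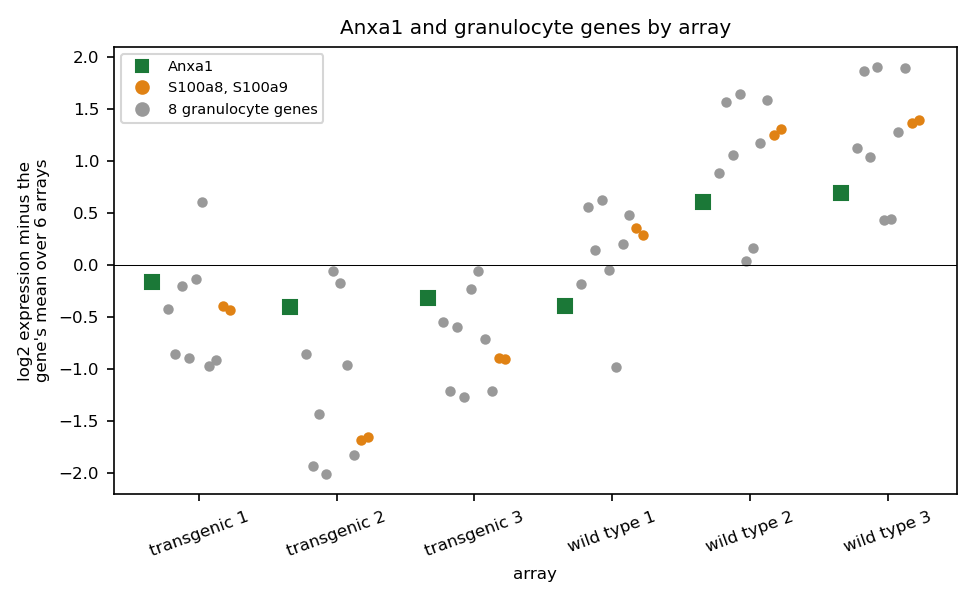
Log2 expression minus each gene's mean over the 6 arrays (vertical axis) for Anxa1 (green squares), S100a8 and S100a9 (orange) and the 8 measured granulocyte markers (grey) on each array (horizontal axis, transgenic arrays left of wild-type arrays). Anxa1 lies below its mean on all transgenic arrays and on wild-type replicate 1 and above it on wild-type replicates 2 and 3, the arrays on which S100a8, S100a9 and the granulocyte mean are highest.

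Bile duct markers moved in the direction of the other annexins. Of 7 measured, 5 were higher and 0 lower, against 19.1% and 19.5% of all genes, and these counts were the same at an unadjusted p under 0.05. Their mean level ranged from 8.22 to 8.47 on the transgenic arrays and from 6.45 to 7.39 on the wild-type arrays. Cldn4, a tight junction gene, read 10.87, 10.49 and 10.23 in transgenic liver, against 6.38, 5.33 and 6.05 in wild-type liver, whereas Krt19, a keratin that defines bile ducts, did not pass (6.96, 7.07 and 6.33 in transgenic liver, against 7.59, 7.47 and 6.10 in wild-type liver) and was lower without wild-type replicate 3. Wild-type replicate 1 had the highest bile duct mean of the wild-type arrays and the lowest S100a10 and Anxa2 1419091_a_at readings. Among the wild-type arrays it also read highest for Anxa5, every Anxa7 probe set, Anxa4 1421223_a_at and Anxa6 1415818_at and 1429246_a_at. For Anxa4 1424176_a_at it read lowest, and for Anxa6 1429247_at it lay between the others. The part of bile duct cells in the higher annexin readings was not tested. Of the other lists, erythroid genes were higher for 4 of 6, and lower were 6 of 9 hepatocyte, 6 of 7 lymphoid, 3 of 8 macrophage, 5 of 8 endothelial, 2 of 8 stellate and 1 of 4 mesothelial genes, with 1 endothelial and 1 stellate gene higher. Over all genes 19.1% were higher and 19.5% lower, so the stellate and mesothelial counts and that of endothelial genes higher lay near those shares. The counts of these lists moved by over 1.5 times for 3 lists when single arrays were left out. The count of lower macrophage genes was 1 without transgenic replicate 2, wild-type replicate 2 or wild-type replicate 3 and 5 without wild-type replicate 1. Lower endothelial genes numbered 3 without transgenic replicate 2, and 0 endothelial genes were higher without transgenic replicate 1, transgenic replicate 2 or wild-type replicate 3. Lower mesothelial genes numbered 4 without wild-type replicate 3, 1 without transgenic replicate 1 and 0 without any 1 of the other arrays. On the scale of the bacterial controls described below, 0 endothelial and 0 macrophage genes were lower and 3 and 2 were higher, 5 stellate genes were higher and 2 lower, 2 hepatocyte genes were higher and 4 lower, 0 mesothelial and 4 lymphoid genes were lower, 5 erythroid and 5 bile duct genes were higher, and 6 granulocyte genes were lower, where 56.5% of all genes were higher and 5.29% lower.

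The remaining annexins on the array were measured for Anxa8, Anxa9, Anxa10 and Anxa13, of which 2 were higher and 0 lower by their highest-mean probe set, with Anxa10 lower at an unadjusted p under 0.05, and by the adjusted p without wild-type replicate 1 or 3. Of all genes, 19.1% were higher and 19.5% lower. On the scale of the bacterial controls 3 of these annexins were higher and 0 lower, where 56.5% of all genes were higher and 5.29% lower. Anxa8, an annexin of epithelial cells, read 6.17, 6.07 and 5.85 in transgenic liver, against 5.09, 5.22 and 5.45 in wild-type liver on probe set 1417732_at, a difference of 0.78 (SE 0.12, limma adjusted p = 0.0019), whereas its second probe set differed by -0.02 and did not pass. Anxa13, an annexin of intestinal and renal epithelium, read 6.77, 7.18 and 6.80 in transgenic liver, against 6.69, 5.50 and 5.08 in wild-type liver, a difference of 1.16 (SE 0.36, limma adjusted p = 0.0385). The Anxa13 call was lost with eBayes trend and robust options, without any 1 of the transgenic arrays, and without wild-type replicate 2 or 3, with adjusted p up to 0.113 over all alternatives. The highest-mean probe sets of Anxa8, Anxa9 and Anxa10 were among the 40% dimmest, with unknown signal over background.

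S100 genes other than S100a10 and S100a11 went both ways, with 4 of 12 measured higher, 4 lower and a median difference of -0.02, against -0.04 over all genes. The shares over all genes were 19.1% higher and 19.5% lower. On the scale of the bacterial controls 6 of these S100 genes were higher and 2 lower, where 56.5% of all genes were higher and 5.29% lower. S100a6, or calcyclin, whose protein also binds annexins, read 11.10, 11.17 and 10.98 in transgenic liver, against 7.82, 8.24 and 7.65 in wild-type liver. This 9.08-fold difference was 3.18 on the log2 scale (SE 0.15, limma adjusted p = 8.35e-06). S100a4, a regulator of non-muscle myosin, averaged 7.11 ± 0.25 in transgenic and 6.13 ± 0.16 in wild-type liver, a difference of 0.98 (SE 0.14, limma adjusted p = 0.00116). S100a8 and S100a9, which together form the neutrophil protein calprotectin, were lower, with differences of -1.98 (SE 0.36) and -2.00 (SE 0.36) and limma adjusted p of 0.00408 and 0.00426. S100a9 read 11.01, 9.79 and 10.53 in transgenic liver, against 11.73, 12.75 and 12.84 in wild-type liver, with wild-type replicate 1 the lowest of its group as for Anxa1.

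**Figure D4:**
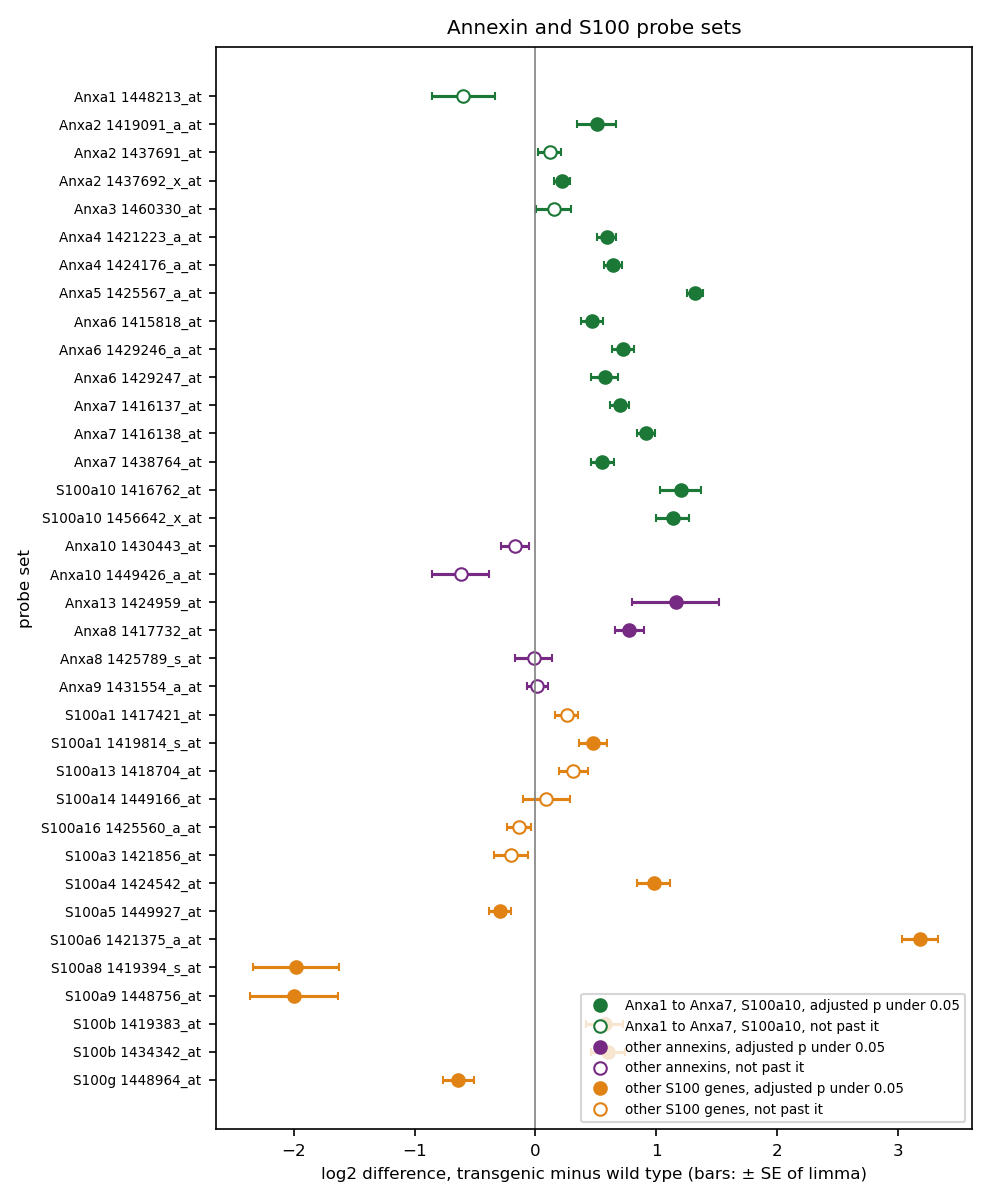
Log2 difference, transgenic minus wild type, with ± SE of the limma fit (horizontal axis) for each probe set of the members (green), the other annexins (purple) and the other S100 genes (orange), filled where the adjusted p over all probe sets was under 0.05. Member differences run from -0.60 for Anxa1 to 1.32 for Anxa5, and the other S100 genes from -2.00 for S100a9 to 3.18 for S100a6.

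Among 16 measured genes for receptors, ligands and membrane repair partners of annexins, 7 were higher and 3 lower, with a median difference of 0.10. Over all genes 19.1% were higher and 19.5% lower. On the scale of the bacterial controls 12 of the 16 were higher and 2 lower, where 56.5% of all genes were higher and 5.29% lower. Plat encodes tPA and Plg encodes plasminogen, both ligands of the annexin A2 and S100A10 complex, and their readings went in opposite directions. Plat read 6.40, 6.57 and 6.21 in transgenic liver, against 4.56, 4.89 and 4.85 in wild-type liver, a difference of 1.63 (SE 0.12, limma adjusted p = 5.49e-05). Plg read 13.20, 13.31 and 13.28 in transgenic liver, against 14.02, 14.01 and 14.07 in wild-type liver, a difference of -0.77 (SE 0.07, limma adjusted p = 0.000119). Myof, a ferlin of plasma membrane repair, was higher by 1.64 (SE 0.18, limma adjusted p = 0.000403) on its brighter probe set and lower on a dim one, with a difference of -0.33. Fpr2, a receptor for annexin A1 on myeloid cells, was lower, with a difference of -1.35 (SE 0.22, limma adjusted p = 0.00237). Ahnak, a large scaffold protein that binds the annexin A2 and S100A10 complex, was named after its values were seen. Its brightest probe set differed by 1.55 (SE 0.10), and of its other probe sets 1 was higher by 0.80, 1 lower with a difference of -0.49, and 1 did not pass.

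Over the series, the median of all probe sets was 6.78 to 6.79 on the transgenic arrays and 6.74 to 6.76 on the wild-type arrays, and the number of arrays limits the precision. Bacterial RNAs used as hybridisation controls (bioB, bioC and bioD) read lower on every transgenic array than on any wild-type array for all 14 of their probe sets, with a median difference of -0.37. Scaling the arrays to them moved the median of all probe sets from -0.04 to 0.33 and the share of calls that were higher from 51.0% to 93.2%. On that scale Anxa5 differed by 1.69, S100a10 by 1.57, Anxa2 1419091_a_at by 0.88 and Anxa1 by -0.23, 15 member probe sets were higher and 0 lower, where 57.3% of all probe sets were higher and 4.18% lower, and none of the 16 changed sign. Hepatocyte genes that mark liver tissue were read at a mean level of 12.42 to 12.52 on the transgenic arrays and 13.30 to 13.39 on the wild-type arrays, with a median difference of -0.59. Their differences ran from -3.58 for Tdo2, a tryptophan-degrading enzyme, to 0.00 for Alb, which read near the top of the scale in both groups.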

How the data were processed

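RNA purified from the whole livers of 6 mice was converted to biotinylated cRNA and read on Affymetrix arrays, as the protocols in the labels state. Deposited values are log2 expression per probe set, which the authors made with affy and RMA, per the submitters' processing notes; versions and any further step are not given there. Because RMA equalises the distributions of the arrays, these values cannot show whether cells held more or less RNA in all. The table held 22690 probe sets, of which 64 were array controls, with 0 missing values.

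Groups came from the sample titles. Of the probe sets tested, the platform annotation paired 20380 with 1 gene, 691 with several and 1555 with none. Each of 22626 probe sets was tested with limma 3.58.1 under R 4.3.3 (linear model with moderated variance, no covariate), and p-values were adjusted by Benjamini-Hochberg over all of them, with a threshold of 0.05. Lists of other genes were counted over the probe set of each gene with the highest mean over all 6 arrays (12393 genes). Exact permutation of 3 and 3 arrays reaches no p under 0.1 and was not used. Promoter windows came from RefSeq, GRCm38.p6. Tables were made in Python 3.11.15 with pandas 2.3.3, figures with matplotlib 3.10.9. The fit was tested on simulated data.

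The members and lists were chosen with earlier results of these data known. Named genes were all members, Tfeb, from each related list no more than 4 called genes, those changed most, taking 2 per direction where both occurred, and the 5 genes most like Anxa2. Any gene outside this rule is marked as such, or belongs to the fixed cell type and sex marker checks. As alternatives, genes were represented by 1 probe set or by the mean over theirs, probe sets with an _s_at, _x_at or _a_at suffix or the 40% dimmest were removed, values were quantile normalized again, median centred, adjusted by cyclic loess or scaled to bacterial controls, and the fit was run with trend and robust variance, with weighted arrays, with the replicate number as a block and without each array in turn.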

Additional observations from a re-analysis of the deposited data

How the results depend on the processing

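None of the 16 member probe sets changed the sign of its difference under any of the 17 alternatives in which it was measured. Of 247 such values, 226 stayed on the same side of the threshold, 17 lost the call, all of them for Anxa2, and 4 gained one, for Anxa1 (2), Anxa3 (1) and Anxa2 1437691_at (1). The count of members higher was 6 of 8 genes with 1 probe set per gene, likewise with probe sets averaged by gene, and 6 of 9 without _s_at, _x_at and _a_at probe sets, since fewer features are tested there, and the count over all features was then 4990, 4765 and 5178, against 8006. Scaling to the bacterial controls gave 13908 calls, turned the Tfeb difference to 0.16 (-0.21 as deposited) and brought in Anxa3 and Anxa2 1437691_at; the cause was not tested. The count of members lower was 1, Anxa1, with array weights, and 0 to 1 when single arrays were left out, being 1 without wild-type replicate 1. Replicate numbers did not pair the arrays (correlations of same-numbered deviations -0.0954, -0.0215 and 0.0507, only transgenic replicate 3 correlating best with its own number). A replicate block gave 6757 calls and 11 members higher, with Anxa2 losing both of its calls. Dim probe sets have unknown signal over background, and possible cross-hybridisation was not measured.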

Other observations

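Further S100 genes that passed the threshold, chosen for mention once their values were known, were S100b, which is best known from glia, S100a1, S100g and S100a5. S100b was higher by 0.57 (SE 0.15) and 0.60 (SE 0.14) on its probe sets. S100a1, a calcium sensor of muscle, was higher by 0.47 (SE 0.12) on 1 of its 2 probe sets, the other differing by 0.26. S100g, the calbindin of intestinal calcium uptake, read 7.65, 7.97 and 7.84 in transgenic liver, against 8.52, 8.65 and 8.21 in wild-type liver. S100a5 was lower on a dim probe set, with a difference of -0.29 (SE 0.09).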
